A study of Rattus norvegicus with 16 samples.

Results

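Diaphragms of rats ventilated, operated and electrically stimulated (E-V12) were compared with diaphragms of rats that were only ventilated (V12), across every transcript cluster of the array. Of the 16 arrays of the series, 4 were of E-V12 and 4 of V12, and each array held RNA of 1 animal. All were male Wistar rats, 14 to 16 weeks old. Both groups had a tracheostomy and 12 h of mechanical ventilation under isoflurane and urethane with atropine, and E-V12 rats also had an abdominal incision, hook electrodes in both sides of the diaphragm, pulsed stimulation throughout and, per the study's methods, supplemental oxygen. E-V12/V12 therefore holds the operation, the oxygen and the stimulation together, and they cannot be told apart in this comparison. The other groups of 4 arrays are set beside it where they place a value, the sham-operated S-V12 rats, with incision, electrodes and oxygen but no stimulation, and the non-ventilated CON rats, whose diaphragm was taken right after anaesthesia. E-V12/V12, S-V12/V12 and E-V12/S-V12 share arrays, so their values for a gene are given side by side and are not independent of each other. Per the methods RNA came from minced muscle of the whole diaphragm, and tissue around the electrodes was removed when the specimen was prepared, in a wording that does not settle whether that tissue was discarded or used.

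The diaphragm is the main muscle of inspiration, and under mechanical ventilation it stops contracting against load, which is known to weaken it and to reduce its mitochondrial function. An incision through the abdominal wall starts a wound response, in which endothelium and matrix genes, immediate early transcription factors and cytokines of the interleukin-6 family act together. Those cytokines signal through the shared receptor chain gp130 to the transcription factor STAT3, whose target SOCS3 shuts the signal down. Contracting muscle in turn takes up glucose, breaks down glycogen and adapts its mitochondria, largely through the coactivator PGC-1alpha.

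A level below is a normalized log2 signal, so a difference of 1 is a fold of 2. A cluster was called where limma's adjusted p lay under 0.05, and a gene is named as dim in a group where all 4 of its arrays lay at or below the highest background entry of that array. The defining genes of skeletal muscle averaged 19.02 to 19.25 on the V12 and E-V12 arrays, near the highest signals measured. Of 10 skeletal muscle markers 0 were higher and 1, Tnni1, was lower (0 higher and 2 lower with the methods' t-test, and 0 and 1 at limma's unadjusted p). Here the methods' t-test means an unpaired t-test on the 8 arrays of V12 and E-V12 with an adjusted p. The study's methods name a parametric t-test and state no adjustment. A call that ended with this adjusted t-test is thus not one the study rejected. Array medians of V12 and E-V12 lay between 5.59 and 5.73, and 36.6% to 40.7% of clusters lay above background. The background entries averaged 4.66 in V12 and 4.65 in E-V12. The 1153 control entries labelled neg did differ, at 5.79 to 5.96 in V12 and 5.35 to 5.48 in E-V12, a difference of -0.45 (exact permutation test, two-sided, p = 0.0286, the smallest that 8 arrays allow). They averaged 5.51 in S-V12 and 5.41 in CON, so V12 was the group that stood apart. The 399 entries labelled pos differed by -0.17 (exact permutation p = 0.0857) and the hybridization spikes by 0.15 (exact permutation p = 0.0571). Poly-A spikes averaged 6.48 ± 0.37 in V12 and 5.98 ± 0.19 in E-V12 (SD, 4 arrays each, exact permutation p = 0.0857). The part of these control differences in the results was not tested, but arrays were also centred on the neg entries, a setting chosen after seeing the data, which moved the median difference of all clusters from -0.02 to 0.43. That centring is given below for many of the downward values whose call it ended or whose sign it turned, but not for all. A fall given without it did not necessarily keep its call there.

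Of 23188 clusters, 1101 (4.75%) were higher and 883 (3.81%) lower in E-V12 than in V12, together 8.56% of those tested. The count of each list below is to be set beside these shares. With the arrays centred on the neg entries the split was 6699 higher and 254 lower, so the balance between directions rests on the scale. The typical call was close to a fold of 2, with a median size of 0.955 upward and 0.924 downward on the log2 scale. Large changes were mostly increases: 60 called clusters rose by a fold of 4 or more and 20 fell by as much, and 15 rose and 0 fell by a fold of 8 or more. With the study's thresholds, a fold of 2 and an unadjusted p under 0.05, 543 clusters (2.34%) were higher and 373 (1.61%) lower. Every array of one group lay beyond every array of the other for 3424 clusters (14.8%), 1728 upward (7.45%) and 1696 downward (7.31%). Of the called clusters, 841 of the higher and 609 of the lower carry a gene symbol. Among the higher clusters 148 were dim in V12, and 71 of these were dim in E-V12 too. Among the lower 221 were dim in E-V12, and 125 of these were dim in V12 too. The count of lower clusters fell to 553 without V12 replicate 1. For comparison, 3410 clusters (14.7%) were called in S-V12/V12, 8.05% of all clusters higher and 6.66% lower, and 628 (2.71%) in E-V12/S-V12, 1.19% higher and 1.51% lower.

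**Figure D1:**
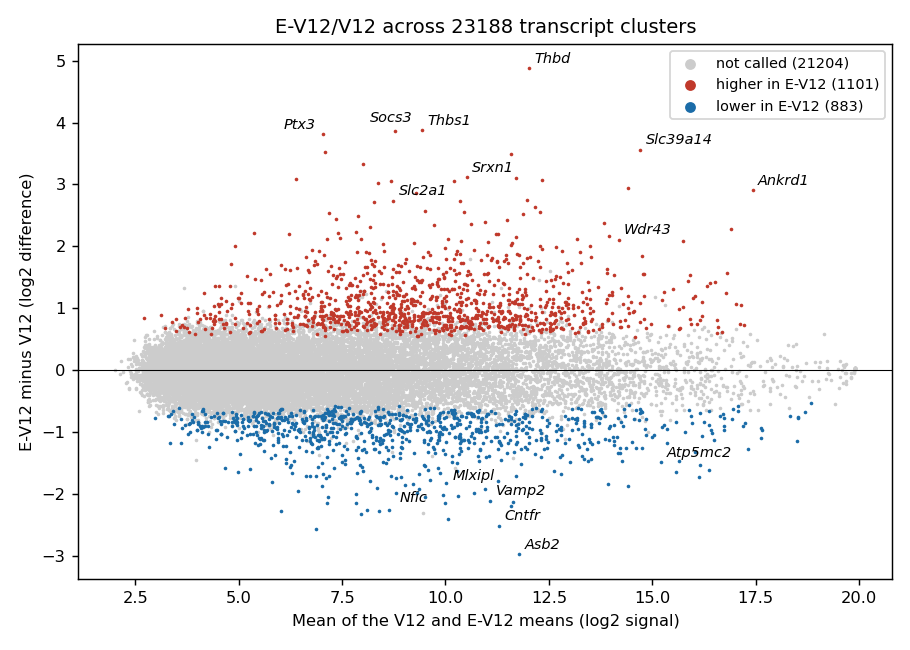
Each point is 1 of the 23188 transcript clusters, with the mean of the V12 and E-V12 group means (log2 signal) on the horizontal axis and the log2 difference E-V12 minus V12 on the vertical axis. Red points are the 1101 higher and blue points the 883 lower clusters at an adjusted p under 0.05, before any recentring (6699 and 254 with arrays centred on the neg control entries). The named genes at the top, from Thbd at 4.88 downward, lie farther from 0 than Asb2 at -2.98 at the bottom.

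The wound and haemostasis genes held the largest increase of any named gene. Thbd encodes thrombomodulin, the endothelial receptor that turns thrombin into an anticoagulant. Its signal was 7.80, 9.63, 10.59 and 10.33 on the V12 arrays and 15.07, 14.38, 14.16 and 14.25 on the E-V12 arrays. The groups lay far apart, and V12 replicate 1 was the lowest array. The log2 difference was 4.88 ± 0.47 (SE, 4 arrays per group), a fold of 29.4, with adjusted p = 1.60e-06. Thbs1, the matrix glycoprotein thrombospondin-1, was at 6.08, 8.90, 7.49 and 7.53 in V12 and at 11.89, 10.22, 11.22 and 12.18 in E-V12, a rise of 3.88 ± 0.64 (adjusted p = 4.39e-04). Ptx3, a soluble pattern recognition protein, was dim in V12 and reached 7.71 to 9.97 in E-V12 (3.81 ± 0.47, adjusted p = 2.82e-05). The protease gene Adamts1, which cleaves matrix proteoglycans, rose by 2.07 ± 0.24, Timp1, an inhibitor of matrix proteases, by 2.55 ± 0.57, and the matricellular gene Ccn1 by 1.75 ± 0.29. Of 28 measured genes of this list, 9 were higher and 0 lower, against 4.75% and 3.81% of all clusters (5 and 0 with the methods' t-test, and 9 and 2 at limma's unadjusted p). Its median difference was 0.10, close to that of all clusters, and 17 of the 28 differences were positive. The calls on Timp1 and Ccn1 ended with the methods' t-test. Structural collagens and other fixed matrix genes had 0 of 22 members called by limma or by the methods' t-test, with 1 higher and 1 lower at limma's unadjusted p. Thbd, Thbs1 and Ptx3 stood at 14.67, 12.10 and 9.22 in S-V12, where differences from E-V12 were -0.21, -0.72 and -0.26 (adjusted p = 0.881, 0.639 and 0.847).

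Genes of interleukin-6 signalling that rose included receptor chains, a kinase, the transcription factor and feedback inhibitors. Of 31 measured members, 10 of them dim in both groups, 15 were higher and 1 lower, against 4.75% and 3.81% of all clusters (12 to 15 higher without any single array, and 8 with the methods' t-test). The median difference was 0.79 against -0.02 for all clusters. At the receptor level, Il6st, which encodes gp130, rose by 1.30 ± 0.19, the interleukin-6 receptor gene Il6r by 1.56 ± 0.24 and the kinase gene Jak2 by 1.44 ± 0.23. Stat3 itself was already bright in V12, at 14.35, 15.25, 15.29 and 15.63, and reached 16.78, 16.71, 16.63 and 16.56 in E-V12. Its 4 E-V12 arrays lay close together and above every V12 array (1.54 ± 0.24, adjusted p = 2.24e-04). The feedback inhibitor Socs3 was at 6.73, 6.36, 7.31 and 6.99 in V12, above background on 3 of 4 arrays, and at 11.54, 8.78, 11.72 and 10.80 in E-V12. E-V12 replicate 2 stood well below the other stimulated arrays, yet above every V12 array, and the difference was 3.86 ± 0.49 (adjusted p = 3.23e-05). Socs2, an inhibitor of growth hormone signalling, rose by 2.58 ± 0.30, from 7.67 to 9.31 in V12 to between 10.44 and 11.07 in E-V12 (adjusted p = 1.59e-05). The ligand gene Il6 was dim in both groups, at 3.91 to 4.55 in V12 and 4.73 to 5.56 in E-V12, and its call (adjusted p = 0.00491) ended with the methods' t-test. Cntfr, the receptor chain for ciliary neurotrophic factor that also pairs with gp130, was the 1 member to fall. It was at 14.25, 12.64, 11.93 and 11.37 in V12 and at 10.25, 9.52, 10.11 and 10.29 in E-V12, a fall of 2.51 ± 0.46 on the log2 scale (adjusted p = 0.00122), and its call ended with the methods' t-test. In S-V12, Socs3 averaged 12.18, Socs2 9.97 and Cntfr 11.46, and none of these differed from E-V12 at the adjusted p (0.108, 0.148 and 0.100).

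Immediate early transcription factors, which respond to stress, injury and activity within minutes, were also called mostly upward. Klf6, a zinc finger factor of injured tissue, was at 7.94, 8.87, 8.46 and 9.41 in V12 and at 12.22, 11.26, 11.50 and 11.95 in E-V12 (3.06 ± 0.26, adjusted p = 5.73e-07). Fos rose by 1.68 ± 0.31, Junb, its AP-1 partner, by 1.78 ± 0.34, Egr1 by 2.64 ± 0.62 and Csrnp1 by 1.65 ± 0.22. Of 28 members, 13 were higher (10 to 13 without any single array, 5 with the methods' t-test) and 1, Klf10, was lower, a call that held without V12 replicate 3 and ended without each of the other 7 arrays. In E-V12/S-V12, 4 members were lower and 0 higher, Jun, Fosl2, Srf and Csrnp1, the last by -0.81 ± 0.22 (adjusted p = 0.0495), from 9.06 in S-V12 to 8.25 in E-V12. The calls on Junb and Egr1 ended with the methods' t-test, and that on Egr1 also with trended variances.

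Chemokine genes were called less firmly. Of 30 chemokine, cytokine and adhesion genes, 15 of them dim in both groups, 7 were higher and 0 lower. But 3, 3, 4, 2 and 4 were higher without V12 replicates 1, 3 and 4 and E-V12 replicates 1 and 4. With the methods' t-test 0 of the 30 were called. At limma's unadjusted p, 12 were higher and 1 lower. Cxcl1, which attracts neutrophils, was dim in V12 at 4.81 to 6.44 and stood at 6.48 to 7.72 in E-V12, and Cxcl11, which attracts T cells, went from between 3.32 and 4.82 to between 5.48 and 6.67, where 1 of 4 arrays was above background. Of 17 genes of the NF-kappa-B pathway, 1, the kinase gene Map3k7, was higher, against 4.75% of all clusters (0 without V12 replicate 1, E-V12 replicate 1 or 4). Of 21 interferon-response genes, 13 of them dim in both groups, limma and the methods' t-test each called 0, with 1 higher at limma's unadjusted p.

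**Figure D2:**
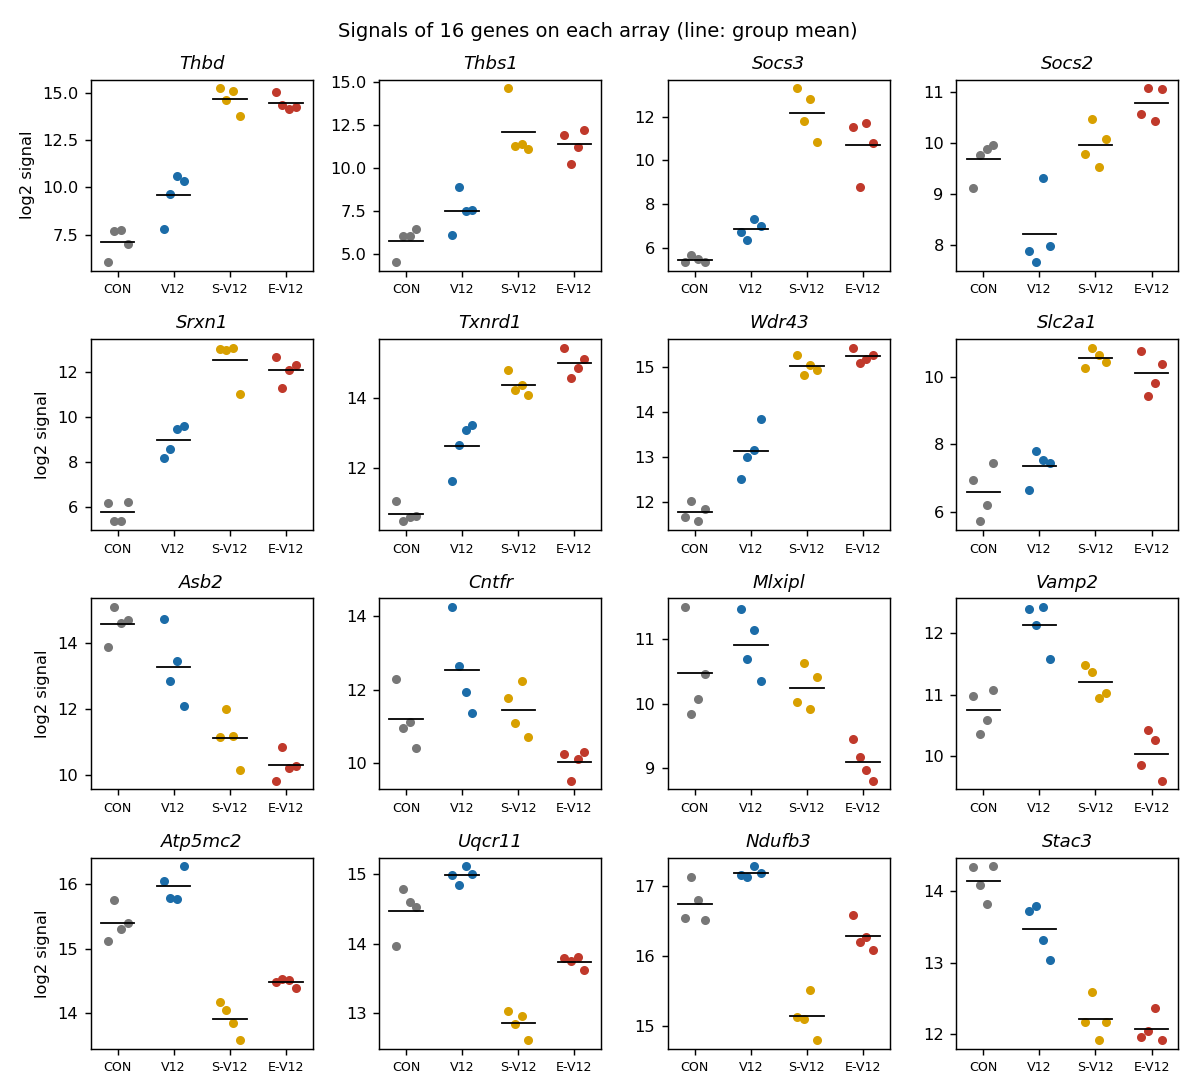
Points are the log2 signals of 16 genes on the 16 arrays, by group, and lines are means of the 4 arrays of a group. Vertical scales differ between panels. In the upper 8 panels every E-V12 array lies above every V12 array, and in the lower 8 below, on the deposited scale.

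The next list held antioxidant and metal-binding genes, many of them targets of the oxidant-responsive factor NRF2. Of 27 members, 12 were higher and 0 lower (7 higher without E-V12 replicate 4, 5 with the methods' t-test, and 13 higher and 2 lower at limma's unadjusted p), and the list's median was 0.30. Srxn1, which encodes sulfiredoxin and repairs oxidized peroxiredoxins, was at 8.18, 8.58, 9.47 and 9.59 in V12 and at 12.65, 11.27, 12.08 and 12.29 in E-V12. The rise was 3.12 ± 0.40, a fold of 8.67 (adjusted p = 3.86e-05). The thioredoxin reductase gene Txnrd1 was at 11.61, 12.65, 13.08 and 13.23 in V12 and at 15.46, 14.60, 14.87 and 15.14 in E-V12 (2.37 ± 0.28, adjusted p = 1.80e-05). Nfe2l2, the NRF2 gene itself, rose by 1.55 ± 0.23, the quinone reductase gene Nqo1 by 1.57 ± 0.25 and Gclm, a subunit of the enzyme that limits glutathione synthesis, by 1.28 ± 0.26. The zinc and iron importer Slc39a14 rose by 3.56 ± 0.35, from 11.27 to 14.02 in V12 to between 16.20 and 16.68 in E-V12. The calls on Nqo1 and Gclm ended with the methods' t-test. Txnrd1 and Srxn1 averaged 14.38 and 12.52 in S-V12, and their E-V12/S-V12 differences of 0.63 ± 0.28 and -0.44 ± 0.40 did not pass (adjusted p = 0.258 and 0.648).

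Chaperones of the endoplasmic reticulum and heat shock proteins were higher in 9 of 25 members and lower in 1 (6 to 9 higher without any single array). Hspa5, the main chaperone of the endoplasmic reticulum, rose by 1.05 ± 0.20, its partner Hsp90b1 by 1.53 ± 0.27, the stress sensor Atf6 by 1.07 ± 0.19 and the co-chaperone Dnajb9 by 1.10 ± 0.20 (adjusted p of 7.48e-04 at the lowest and 0.00137 at the highest), and with the methods' t-test Hsp90b1 lost its call. Hsf1, the heat shock transcription factor, fell by 1.0 ± 0.22 on the log2 scale (adjusted p = 0.00434), a call that ended with arrays centred on the neg entries. The hypoxia-responsive genes split. Hif1a, the oxygen-regulated factor, was at 9.51 to 9.99 in V12 and 10.64 to 11.84 in E-V12 (1.60 ± 0.26, adjusted p = 4.30e-04). Vegfa, the endothelial growth factor it can induce, was at 14.75, 13.83, 14.43 and 13.20 in V12 and at 12.17, 12.82, 12.83 and 12.67 in E-V12, a fall of 1.43 ± 0.28 (adjusted p = 0.00189), and that call ended with the methods' t-test. Of 21 hypoxia genes, 4 were higher and 1 lower, with 2 higher without V12 replicate 2, V12 replicate 3, E-V12 replicate 2 or 3, and 2 lower without V12 replicate 3.

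Genes for building ribosomes held the largest share of calls among the lists described here. Of 27 measured genes of nucleolar ribosome assembly, 16 were higher and 0 lower (12 to 16 higher without any single array, 12 with the methods' t-test), and at limma's unadjusted p 19 were higher and 0 lower. The median difference was 0.81 against -0.02 for all clusters. Wdr43, a component of the small subunit processome, was at 12.51, 13.01, 13.15 and 13.85 in V12 and at 15.43, 15.09, 15.18 and 15.27 in E-V12 (2.11 ± 0.22, adjusted p = 6.06e-06). The nucleolar helicase gene Ddx21 rose by 1.76 ± 0.21, the ribosomal RNA methyltransferase gene Nop2 by 1.65 ± 0.23, the box C/D particle protein gene Nop58 by 1.31 ± 0.21 and Polr1b, a core subunit of RNA polymerase I, by 1.22 ± 0.20. Averaged over the list, V12 arrays lay from 9.61 upward and E-V12 arrays, without overlap, between 10.52 and 10.81, with S-V12 between 10.54 and 10.71 and CON between 8.88 and 9.22. The 4 groups thus fell in 3 steps, with E-V12 and S-V12 on the same one. MYC, which binds the E-box CACGTG, is the best known activator of this group. Its own gene Myc rose by 1.5 ± 0.33 (adjusted p = 0.00585), a call that ended with the methods' t-test. The part of MYC in these rises was not tested.

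The E-box CACGTG, which reads the same on both strands, was searched in the 250 bases before each start site in the RefSeq promoters of rat build GRCr8, since MYC is known to act through it. It was present in 6 of 24 promoters of the list that the table held (25%), in 3 of 13 of the genes that rose (23.1%) and in 1872 of all 33469 promoters (5.6%). The other list promoters with the E-box belong to genes that were not called. The 3 promoters of genes that rose follow, 5′ to 3′, with the E-box in capitals, and a match is a description of the letters and not a binding site. Gnl3 encodes nucleostemin, Utp20 a processome component and Mybbp1a a nucleolar protein that binds MYB, and their differences were 0.82 ± 0.22, 1.21 ± 0.26 and 1.22 ± 0.23 (adjusted p = 0.0232, 0.00397 and 0.00125). The call on Gnl3 ended with the methods' t-test and without any of V12 replicates 1 and 3 and E-V12 replicates 1, 3 and 4. The stretches are chr16:6219783-6220032 on the minus strand for Gnl3, chr7:25102850-25103099 on the minus strand for Utp20 and chr10:57555208-57555457 on the plus strand for Mybbp1a.
Gnl3: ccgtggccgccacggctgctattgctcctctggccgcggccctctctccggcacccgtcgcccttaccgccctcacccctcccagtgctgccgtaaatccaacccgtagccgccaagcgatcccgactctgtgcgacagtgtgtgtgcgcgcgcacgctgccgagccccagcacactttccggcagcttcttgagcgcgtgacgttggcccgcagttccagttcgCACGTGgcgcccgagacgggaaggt
Utp20: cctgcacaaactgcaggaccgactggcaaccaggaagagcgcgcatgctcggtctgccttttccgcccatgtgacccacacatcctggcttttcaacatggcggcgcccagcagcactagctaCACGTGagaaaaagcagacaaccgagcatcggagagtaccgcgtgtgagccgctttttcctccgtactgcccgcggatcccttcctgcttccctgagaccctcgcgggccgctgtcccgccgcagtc
Mybbp1a: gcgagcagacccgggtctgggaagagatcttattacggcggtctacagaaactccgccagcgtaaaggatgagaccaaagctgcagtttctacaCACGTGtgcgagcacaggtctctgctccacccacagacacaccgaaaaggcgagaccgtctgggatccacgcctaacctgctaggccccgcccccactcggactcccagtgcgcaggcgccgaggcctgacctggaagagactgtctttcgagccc

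For comparison, the core of the antioxidant response element to which NRF2 binds, TGACNNNGC on either strand, was present in 7 of 21 promoters of the antioxidant list (33.3%), in 2 of 9 of its genes that rose (22.2%) and in 3373 of all promoters (10.1%). The STAT site TTCNNNGAA was present in 3 of 21 promoters of the interleukin-6 list (14.3%), in 1 of 11 of its genes that rose (9.1%) and in 2566 of all promoters (7.7%). The promoter of Gclm, chr2:213031885-213032134 on the plus strand, holds the antioxidant element core TGACNNNGC once, on the opposite strand, in capitals here.
Gclm: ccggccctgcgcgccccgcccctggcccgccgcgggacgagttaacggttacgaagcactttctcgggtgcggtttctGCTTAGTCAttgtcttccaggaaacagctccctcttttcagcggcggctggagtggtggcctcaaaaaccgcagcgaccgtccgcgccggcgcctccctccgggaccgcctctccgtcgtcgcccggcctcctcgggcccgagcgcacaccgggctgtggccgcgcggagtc

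Few protein components of the cytosolic ribosome were called. Of 68 measured ribosomal protein genes, 1 was higher and 0 lower in E-V12/V12 (0 higher without V12 replicate 1, 4 higher without V12 replicate 4 and 1 lower without E-V12 replicate 3), and 6 higher and 3 lower at limma's unadjusted p, with a median of 0.05. The methods' t-test called 1 higher and 1 lower, and not Rps16. Rps16 was at 13.26, 14.19, 13.83 and 14.43 in V12 and at 15.07, 14.92, 14.99 and 15.12 in E-V12 (1.10 ± 0.27, adjusted p = 0.0132). Averaged over the list, the V12 arrays spanned 13.31 to 13.95 and the E-V12 arrays 13.48 to 13.84, and the S-V12 arrays lay lower, between 12.66 and 13.07. The list's median was -0.81 in S-V12/V12 and 0.82 in E-V12/S-V12, with 37 members lower and 27 higher in these.

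The calls on genes of the respiratory chain were all downward in E-V12/V12, while most members did not pass. Of 32 measured complex I genes, 6 were lower and 0 higher (4 to 6 without any single array), with a median of -0.19. Of 26 genes of complexes II to IV, 7 were lower and 0 higher (5 to 7 without any single array), with a median of -0.25, and of 13 genes of ATP synthase 3 were lower and 0 higher (1 lower without E-V12 replicate 4), with a median of -0.39. With arrays centred on the neg entries these 3 medians turned to 0.26, 0.19 and 0.06, which lie at -0.16, -0.23 and -0.37 relative to the median of all clusters at that setting, and 1, 4 and 1 members were lower there, with 5, 3 and 0 higher. In S-V12/V12 the medians were -1.02, -0.94 and -0.97, with 23, 19 and 9 members lower. In E-V12/S-V12 they were 0.74, 0.53 and 0.56, with 13, 8 and 3 members higher.

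Atp5mc2, which encodes the proton-carrying ring of ATP synthase, fell the most in these lists. It was at 16.04, 15.78, 15.76 and 16.27 in V12 and at 14.48, 14.54, 14.51 and 14.39 in E-V12. The fall was 1.48 ± 0.19 on the log2 scale (adjusted p = 3.64e-05), and S-V12 averaged 13.92. Uqcr11 of complex III was at 14.98, 14.85, 15.11 and 15.01 in V12, at 13.79, 13.74, 13.80 and 13.62 in E-V12 and at 12.61 to 13.03 in S-V12. E-V12 thus lay between the other ventilated groups with no overlap, 1.25 ± 0.19 below V12 (adjusted p = 1.83e-04) and 0.88 ± 0.19 above S-V12 (adjusted p = 0.0182). Ndufb3 of complex I had the same order, with 17.13 to 17.28 in V12, 16.09 to 16.58 in E-V12 and 14.80 to 15.51 in S-V12, and fell by 0.90 ± 0.19 from V12 (adjusted p = 0.00430). Its call against V12 ended with arrays centred on the neg entries, while those on Atp5mc2 and Uqcr11 did not.

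Succinate dehydrogenase and a muscle subunit of cytochrome oxidase were also lower than in V12, with no difference from S-V12 past the threshold. Sdhb, the iron-sulfur subunit of complex II, was at 17.04, 16.90, 16.88 and 17.04 in V12 and at 15.96, 16.01, 15.89 and 15.91 in E-V12 (difference -1.02 ± 0.17, adjusted p = 5.63e-04). Its S-V12 mean of 16.11 gave an E-V12/S-V12 difference of -0.17 ± 0.17 (adjusted p = 0.696). Sdhc fell by 1.02 ± 0.18 and the muscle subunit gene Cox6a2 by 1.14 ± 0.16, and their E-V12/S-V12 differences were -0.33 and -0.01 (adjusted p = 0.394 and 0.984). Mitochondrial ribosomal proteins were lower in 10 of 65 members and higher in 1, Mrpl19 (0 without V12 replicate 4), with a median of -0.30 (0.15 with arrays centred on the neg entries, -0.27 relative to all clusters there, with 7 higher and 2 lower). The 10 became 6, 5, 6, 5 and 5 without V12 replicates 2 and 4 and E-V12 replicates 2, 3 and 4. The methods' t-test called 2 lower and 0 higher. Mrpl42 fell by 1.18 ± 0.19 (adjusted p = 2.94e-04), and its call held under every setting tried.

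**Figure D3:**
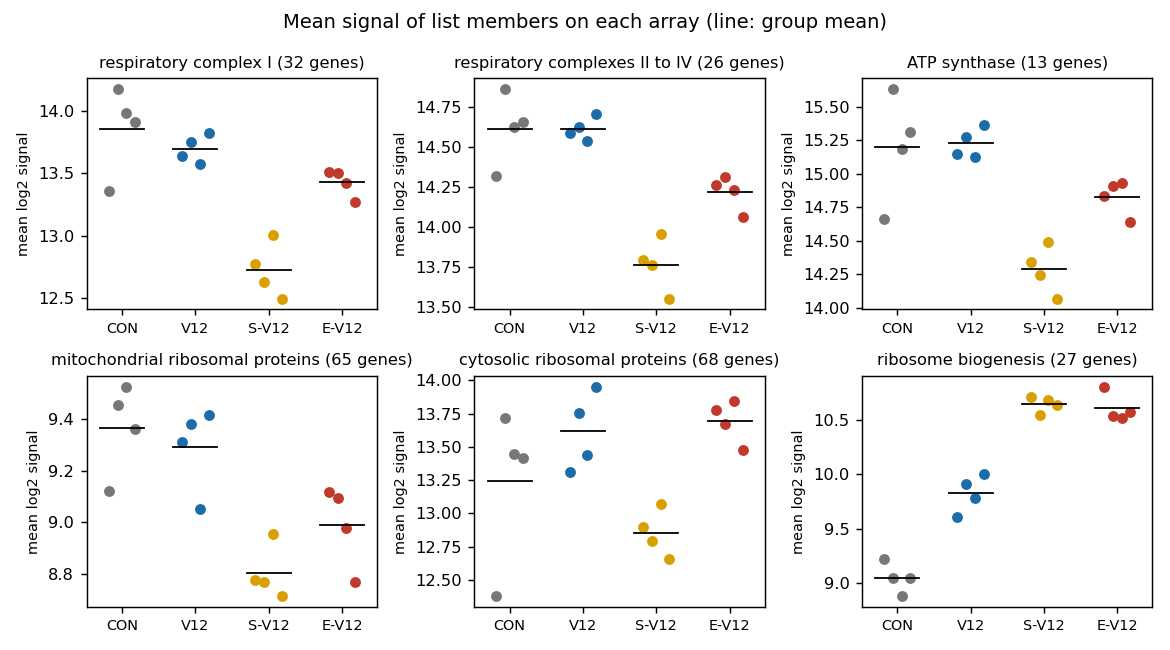
Points are the mean log2 signal of the measured members of 6 lists on each of the 16 arrays, by group, and lines are means of the 4 arrays of a group. Vertical scales differ between panels. In the 3 respiratory panels every E-V12 array lies below every V12 array and above every S-V12 array as deposited, an order against V12 that turns for the list medians when arrays are centred on the neg control entries, and for cytosolic ribosomal proteins the E-V12 and V12 arrays overlap.

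Genes of glucose uptake and storage moved in both directions. Slc2a1, the basal glucose transporter, was at 6.66, 7.79, 7.54 and 7.46 in V12 and at 10.77, 9.44, 9.82 and 10.37 in E-V12, a rise of 2.74 ± 0.33 (adjusted p = 1.93e-05). Hk2, which phosphorylates the glucose taken up, rose by 1.19 ± 0.26 and the glycolytic mutase gene Pgam1 by 1.46 ± 0.27. Slc2a4, the insulin-regulated transporter, fell by 0.84 ± 0.21 and Gys1, muscle glycogen synthase, by 0.78 ± 0.23. Mlxipl, which encodes the carbohydrate-sensing factor ChREBP, was at 11.47, 10.70, 11.14 and 10.35 in V12 and at 9.45, 9.16, 8.96 and 8.79 in E-V12, with S-V12 at 9.92 to 10.63. It was lower than in V12 by 1.83 ± 0.30 (difference -1.83, adjusted p = 4.14e-04) and also lower than in S-V12 (-1.16 ± 0.30, adjusted p = 0.0404). Slc2a4 and Gys1 likewise differed in E-V12/S-V12, by -1.18 ± 0.21 and -1.08 ± 0.23 (adjusted p = 0.00862 and 0.0179), while their S-V12 means of 12.78 and 14.42 were not below the V12 means of 12.44 and 14.12. Of 36 genes of glucose use, 6 were higher and 5 lower, with 3 lower without V12 replicate 1, E-V12 replicate 1 or 4. The methods' t-test called 2 higher and 2 lower. With arrays centred on the neg entries 10 were higher and 2 lower, and the list median of -0.16 turned to 0.29 (-0.13 relative to all clusters there). The calls on Hk2, Slc2a4 and Gys1 ended with the methods' t-test, and those on Slc2a4 and Gys1 also with arrays centred on the neg entries and without V12 replicate 1 or E-V12 replicate 1. The call on Gys1 further ended without V12 replicates 3 or 4 or E-V12 replicates 3 or 4.

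Among genes of fat use, Ucp2 fell the most of those called. Ucp2, a mitochondrial carrier induced by fatty acids, was at 12.06, 12.22, 12.09 and 11.27 in V12 and at 9.83, 9.52, 10.45 and 10.20 in E-V12 (difference -1.91 ± 0.33, adjusted p = 6.65e-04). Acadl, a dehydrogenase of beta-oxidation, fell by 1.0 ± 0.18 (adjusted p = 9.47e-04), to a mean of 15.28 against 15.26 in S-V12. With arrays centred on the neg entries, 8 of the 33 genes of fatty acid oxidation and PPAR targets were higher and 2 lower. Their median was 0.10 there, -0.33 relative to all clusters. As deposited, 5 were lower and 2 higher, with a median of -0.35. The 5 became 3, 2, 2, 3 and 2 without V12 replicates 1 and 2 and E-V12 replicates 1, 3 and 4. The 2 higher, Plin2 and Ppard, became 0 or 1 without any single array. Pdk2, which restrains pyruvate oxidation, fell by 1.19 ± 0.24 (adjusted p = 0.00223), and by 1.09 ± 0.24 in E-V12/S-V12 (adjusted p = 0.0190). Of the 25 genes of the tricarboxylic acid cycle and pyruvate dehydrogenase, 3 were higher (1 without E-V12 replicate 1 or 2) and 2 lower, Pdk2 and the malate dehydrogenase gene Mdh2, the last lost with arrays centred on the neg entries.

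Regulators of mitochondrial content split between the PGC-1 relatives. Ppargc1a, the PGC-1alpha gene, was at 10.55, 8.29, 8.04 and 7.52 in V12 and at 7.05, 7.54, 6.82 and 7.30 in E-V12. The groups overlapped by V12 replicate 4, and V12 replicate 1 stood far above the other arrays. The difference was -1.42 ± 0.43 (adjusted p = 0.0425), and the call ended without V12 replicate 1 or 2, without any single E-V12 array, and with the methods' t-test, the 8 arrays alone, trended variances, array median centring or centring on the neg entries. Pprc1, a related coactivator, rose by 1.29 ± 0.23, Gabpa, a subunit of nuclear respiratory factor 2, by 1.18 ± 0.19 and Prkaa1, a catalytic subunit of the energy sensor AMPK, by 1.56 ± 0.21 (adjusted p from 6.34e-05 to 9.10e-04). Of 20 genes of this list, 3 were higher and 3 lower, and the 3 lower became 0, 1, 1, 1 and 1 without V12 replicates 1 and 2 and E-V12 replicates 1, 3 and 4. With arrays centred on the neg entries 6 were higher and 0 lower. The list median of -0.24 turned to 0.21 there (-0.22 relative to all clusters).

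Among genes of amino acid supply, Slc7a5, the leucine importer, was at 5.94, 7.05, 7.92 and 7.68 in V12 and at 10.33, 10.59, 9.34 and 10.56 in E-V12. That was a rise of 3.06 ± 0.36, a fold of 8.31 (adjusted p = 1.76e-05). Psat1, of serine synthesis, was dim in V12 and rose by 1.63 ± 0.23 (adjusted p = 9.67e-05). Of 27 members, 5 were higher, with 3 higher without V12 replicate 2, V12 replicate 3 or E-V12 replicate 4, and 1, Atf5, was lower, a call that ended without V12 replicates 1, 3 or 4 or E-V12 replicates 1, 3 or 4. The methods' t-test called 2 higher and 0 lower, and with arrays centred on the neg entries 15 were higher and 0 lower. Of 20 genes of insulin and growth signalling 2 were higher and 2 lower, with a median of -0.17 (0.28 with arrays centred on the neg entries, -0.15 relative to all clusters there, where 5 were higher and 1 lower). Pik3ca, the catalytic subunit of phosphatidylinositol 3-kinase, rose by 1.34 ± 0.19 and the receptor gene Igf1r by 1.33 ± 0.27, while Grb14, an adaptor that inhibits the insulin receptor, fell by 1.34 ± 0.21 (adjusted p from 8.46e-05 to 0.00269). Irs1, the substrate that carries the signal from the insulin receptor, also fell, by 0.91 ± 0.26 (adjusted p = 0.0303), a call that ended with the methods' t-test, with arrays centred on the neg entries and without V12 replicate 1 or 2 or E-V12 replicate 2 or 4.

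Genes of muscle breakdown moved in both directions. Asb2, a subunit of a ubiquitin ligase that targets filamins in muscle, had the lowest difference of any named gene. It was at 14.71, 12.84, 13.45 and 12.09 in V12 and at 9.83, 10.86, 10.22 and 10.27 in E-V12, a fall of 2.98 ± 0.42 (adjusted p = 9.21e-05) whose call ended with the methods' t-test. Acvr1b, a receptor for activin and myostatin, rose by 2.11 ± 0.36 and Gadd45a, a growth-arrest gene of wasting muscle, by 0.87 ± 0.22, the last lost without V12 replicate 1 or with the methods' t-test. The ubiquitin ligase genes most used as marks of atrophy did not pass. Trim63 was at 16.86 to 17.35 in V12 and 17.24 to 18.11 in E-V12 (0.58 ± 0.27, adjusted p = 0.211), and it passed with arrays centred on the neg entries, at 1.03. Fbxo32 was at 18.12 to 18.79 and 17.38 to 18.52 (-0.44 ± 0.22, adjusted p = 0.275), a difference that turned to 0.01 with that centring. Of 25 atrophy genes 4 were higher and 2 lower. Of 39 proteasome genes 1, Psme4, was higher, against 4.75% of all clusters (0 without E-V12 replicate 4). Of 26 apoptosis genes, 11 of them dim in both groups, 5 were higher and 0 lower (2 to 4 higher without any single array, 2 with the methods' t-test). They were the survival genes Mcl1, by 1.35 ± 0.19, Bcl2l1, by 1.22 ± 0.22, and Bcl2a1, dim in both groups, by 1.07 ± 0.30, and the death effectors Bax, dim in V12, by 0.85 ± 0.22 and Apaf1 by 0.66 ± 0.20 (adjusted p = 9.80e-05, 0.00107, 0.0278, 0.0178 and 0.0434). The calls on Mcl1 and Bcl2l1 held under every setting tried, and those on Bcl2a1, Bax and Apaf1 ended with the methods' t-test and without any of several arrays.

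Among sarcomere genes, Ankrd1, a stretch-responsive ankyrin repeat protein, was at 13.32, 16.54, 16.45 and 17.56 in V12 and at 19.07, 18.65, 19.03 and 18.76 in E-V12. The 4 E-V12 arrays were tight and near the top of the array's range, while the V12 arrays spread widely, and the difference of 2.91 ± 0.77 (adjusted p = 0.0197) was not called without V12 replicate 1 or E-V12 replicate 1, nor with the methods' t-test or trended variances. Klhl40, which stabilizes thin filament proteins, rose by 2.40 ± 0.39, from 9.17 to 10.32 in V12 to between 11.57 and 12.90. Tmod4, which caps thin filaments, was at 15.11, 15.08, 14.97 and 14.81 in V12 and at 13.62, 13.76, 13.47 and 13.27 in E-V12 (difference -1.46 ± 0.19, adjusted p = 3.64e-05), and the Z-disc gene Ldb3 fell by 1.27 ± 0.24. Of 23 such genes 2 were higher (1 without V12 replicate 1 or E-V12 replicate 1) and 3 lower. Sln, which encodes sarcolipin and slows calcium uptake, fell by 1.48 ± 0.29 and Tnni1, slow troponin I, by 0.83 ± 0.18, calls that ended with the methods' t-test for Sln and with arrays centred on the neg entries for Tnni1. Of 13 fast-fibre genes 1, Tnni2, was lower and its call ended without any single array. With arrays centred on the neg entries 3 fast-fibre genes were higher and 0 lower.

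Genes that couple excitation to contraction had a median difference of -0.38 (0.07 with arrays centred on the neg entries, -0.36 relative to all clusters there). Of 24 measured, 4 were lower and 1 higher, and the higher, Cacna2d1, held only without E-V12 replicate 3 among the arrays left out. The methods' t-test called 1 higher and 2 lower, and with arrays centred on the neg entries 2 were higher and 1 lower. Stac3, which ties the voltage sensor to the release channel, was at 13.72, 13.80, 13.31 and 13.04 in V12 and at 11.95, 12.03, 12.35 and 11.91 in E-V12 (difference -1.41 ± 0.21, adjusted p = 1.69e-04). It averaged 12.21 in S-V12. Cacnb1, the beta subunit of the voltage sensor, was at 12.77 in V12 and 12.78 in S-V12 and at 11.80 in E-V12, lower than in V12 by 0.97 ± 0.23 and than in S-V12 by 0.98 ± 0.23 (differences -0.97 and -0.98, adjusted p = 0.00989 and 0.0274). The call against V12 ended with the methods' t-test and with arrays centred on the neg entries. Of 23 genes of the neuromuscular junction and the denervation response, 7 of them dim in both groups, 2 were higher and 0 lower. Only 1 was higher without V12 replicate 1, V12 replicate 3 or E-V12 replicate 1, and 2 were lower without V12 replicate 4. The methods' t-test called 0, and 4 were higher and 4 lower at limma's unadjusted p. The median was -0.17 (0.28 with arrays centred on the neg entries, -0.15 relative to all clusters there, where 5 were higher). Chrna1, a subunit of the acetylcholine receptor that denervation raises, was at 10.32 to 10.71 in V12 and at 11.54 to 13.04 in E-V12 (1.80 ± 0.30, adjusted p = 4.28e-04, lost with the methods' t-test).

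**Figure D4:**
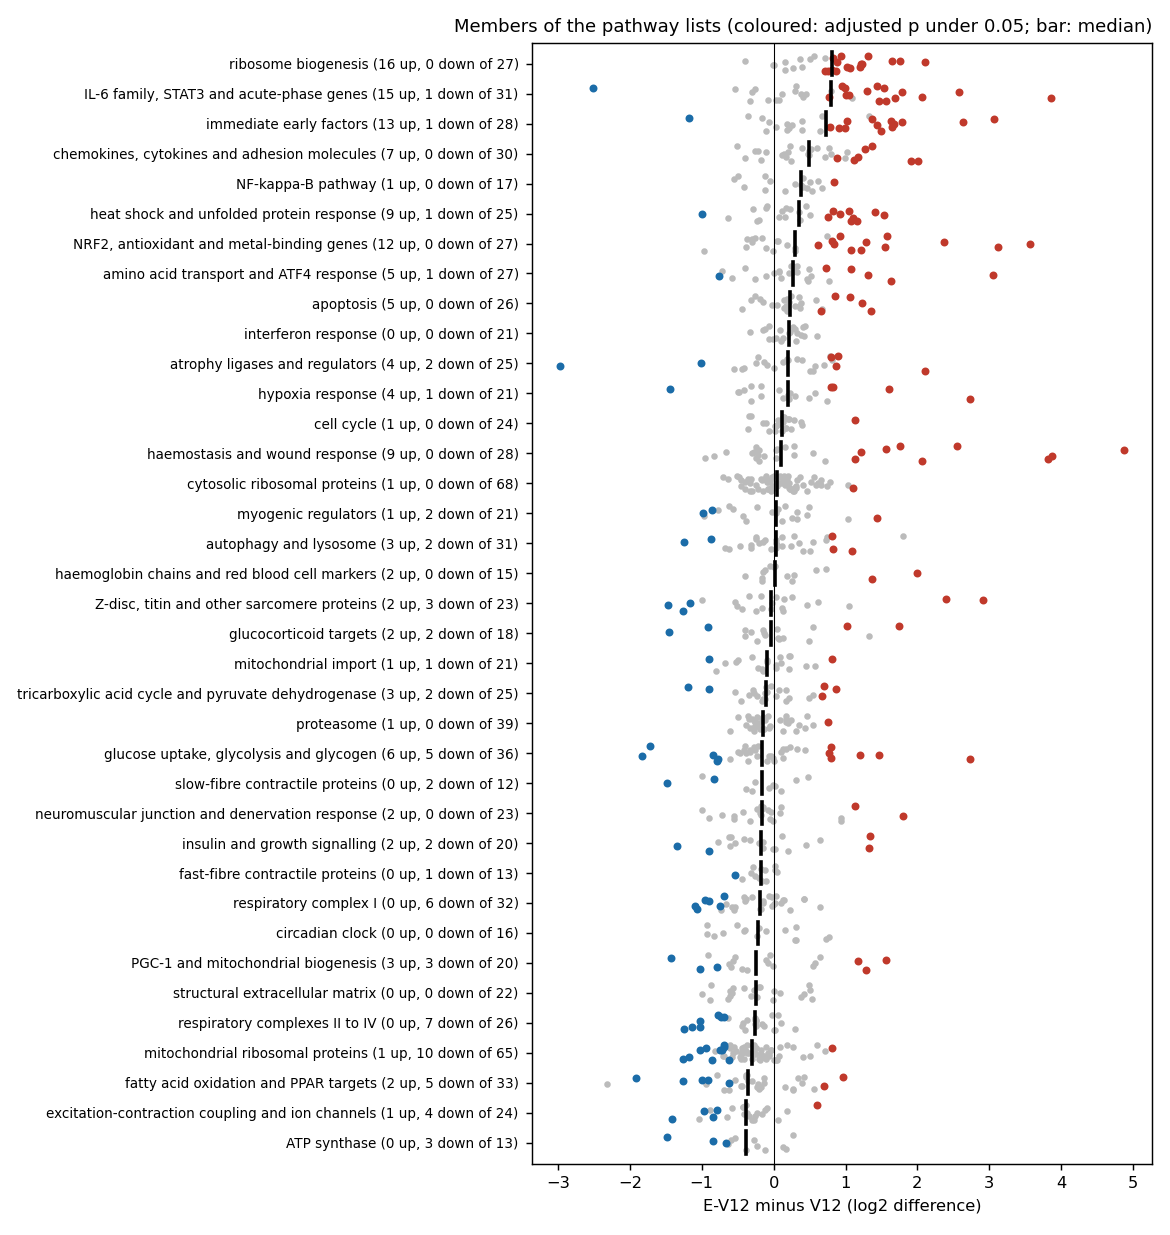
Each row is 1 of the 37 pathway lists and each point a measured member, placed by its log2 difference E-V12 minus V12. Coloured points passed the adjusted p (red higher, blue lower) and black bars are list medians, which run from -0.39 for ATP synthase to 0.81 for ribosome biogenesis, with every median raised by about 0.45 when arrays are centred on the neg control entries.

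Several of the largest falls lay outside the lists, and some of these also differed from S-V12. Vamp2, a vesicle fusion protein that serves glucose transporter traffic in muscle, was at 12.41, 12.13, 12.43 and 11.58 in V12, at 10.94 to 11.49 in S-V12 and at 9.85, 10.43, 10.25 and 9.59 in E-V12. It was lower than in V12 by 2.11 ± 0.24 and than in S-V12 by 1.18 ± 0.24 (differences -2.11 and -1.18, adjusted p = 1.27e-05 and 0.0124). Nfic, a nuclear factor I transcription factor, was at 11.62, 10.60, 10.98 and 10.54 in V12, at 10.28 to 10.61 in S-V12 and at 9.06, 8.97, 9.04 and 8.63 in E-V12 (differences -2.01 ± 0.26 and -1.5 ± 0.26, adjusted p = 4.14e-05 and 0.00672). For both genes the E-V12 arrays lay below those of each other ventilated group. Fhl3, a LIM domain protein of muscle, fell by 2.28 ± 0.42, the carbonic anhydrase gene Car14 by 2.14 ± 0.34 and the glutamine transporter gene Slc38a3 by 2.03 ± 0.41, and these 3 calls ended with the methods' t-test. As3mt, an arsenic methyltransferase, fell by 2.05 ± 0.32 (adjusted p = 2.59e-04).

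Large rises outside the lists were Cd93, a receptor of endothelial and myeloid cells, which was dim in V12 and rose by 3.52 ± 0.31, Ehd4, of endosome traffic, by 3.49 ± 0.32, Scn3b, a sodium channel beta subunit, by 3.33 ± 0.34 and the tubulin gene Tubb2a by 3.03 ± 0.24 (adjusted p from 4.81e-07 to 5.03e-06). Pcna, the sliding clamp of DNA replication, was at 9.94 to 10.42 in V12 and 11.09 to 11.37 in E-V12 (1.14 ± 0.19, adjusted p = 6.16e-04), and it also lay above S-V12 by 0.89 ± 0.19 (adjusted p = 0.0192). It was the 1 of 24 cell cycle genes called, and 16 of the 24 were dim in both groups. In the lists not yet named, 1 of 21 mitochondrial import genes was higher and 1 lower, of 31 autophagy and lysosome genes 3 were higher and 2 lower, of 21 myogenic regulators 1 was higher and 2 lower, and of 18 glucocorticoid targets 2 were higher and 2 lower. With arrays centred on the neg entries, 4, 12, 6 and 5 members of these lists were higher and 0, 1, 0 and 1 lower, in that order. Leaving out single arrays moved each of these 4 lists by at least 1 call. Over all clusters 4.75% were called higher and 3.81% lower. Of 16 clock genes limma called 0, with 1 higher and 1 lower at limma's unadjusted p and 1 higher with the methods' t-test.

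Markers of the other cell types that the tissue can hold were read from the same arrays. In bulk tissue, fewer cells of a type and less RNA per cell cannot be told apart. Of 17 monocyte and macrophage markers 2 were higher and 0 lower, against 4.75% and 3.81% of all clusters. They were the lysozyme gene Lyz2 and Itgam, the last dim in both groups. Lyz2 was at 12.10, 11.64, 11.99 and 10.94 in V12 and at 14.68, 12.78, 13.07 and 14.09 in E-V12 (1.99 ± 0.42, adjusted p = 0.00360), while the count was 1 without V12 replicate 4, E-V12 replicate 1 or 4, and 0 with the methods' t-test. The pan-macrophage marker Cd68 stood at 6.94 and 6.45 and did not pass (adjusted p = 0.260). Of 11 neutrophil markers, 8 of them dim on both sets of arrays, 1 was higher, S100a9, at 5.79, 6.33, 5.65 and 5.44 in V12 and 10.04, 6.49, 6.89 and 7.56 in E-V12, where replicate 1 stood far above the others. Without E-V12 replicate 2 or 3, 2 neutrophil markers were higher, and with the methods' t-test 0. These values stand beside the cytokine and chemokine results, and their part in them was not tested.

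Thbd and Cd93 are also expressed in endothelium, so its markers were read beside them. Of 14 endothelial markers, 2 were lower and 0 higher, with a median of -0.27 (0.18 with arrays centred on the neg entries, -0.25 relative to all clusters there, where 0 were lower). Pecam1 was at 8.31, 7.49, 7.99 and 7.23 in V12 and at 6.93, 6.90, 6.91 and 6.30 in E-V12 (difference -1.0 ± 0.27, adjusted p = 0.0202). Emcn had a difference of -0.80 ± 0.23 (adjusted p = 0.0297). The call on Pecam1 ended without V12 replicate 1, V12 replicate 3 or E-V12 replicate 4 and that on Emcn without any single array except V12 replicate 4. Both calls ended with the methods' t-test, which called 0 endothelial markers. Of 10 fibroblast markers 1, Pdgfra, was higher (1.44 ± 0.36, adjusted p = 0.0133, lost with the methods' t-test and without V12 replicate 1, E-V12 replicate 3 or 4). Of 11 smooth muscle and pericyte markers 1, Lmod1, was lower, and without V12 replicate 4 they were 2. Of 8 liver markers, all dim in both groups, 1 was lower, Cyp2e1 (difference -1.18 ± 0.30, adjusted p = 0.0136), a call that ended without V12 replicate 1 or E-V12 replicate 1, with the methods' t-test and with arrays centred on the neg entries. Of the markers of lymphocytes, mesothelium, adipocytes and Schwann cells, 11, 7, 6 and 6 measured, 10, 1, 2 and 4 were dim in both groups. Limma and the methods' t-test called 0, with 0, 2, 0 and 0 lower at limma's unadjusted p, and 1 mesothelial marker was lower without E-V12 replicate 4.

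Of the haemoglobin chains, Hbb and Hbb-b1 were higher in E-V12. Hbb was at 12.90, 12.98, 11.91 and 12.21 in V12, at 10.60 to 12.52 in S-V12 and at 13.84, 13.63, 15.38 and 15.16 in E-V12, so E-V12 lay above both. The difference from V12 was 2.0 ± 0.57 (adjusted p = 0.0291) and from S-V12 2.6 ± 0.57 (adjusted p = 0.0190), while CON averaged 14.26. Hbb-b1 rose by 1.37 ± 0.39 with overlapping groups (adjusted p = 0.0283). Of 15 haemoglobin and red blood cell genes these 2 were called, 0 with the methods' t-test and 0 without any of V12 replicates 3 and 4 and E-V12 replicates 3 and 4. Averaged over the list, V12 arrays lay between 5.83 and 6.08 and E-V12 arrays between 6.01 and 6.48, which overlap (exact permutation test, two-sided, p = 0.171). Of the 15 genes 10 were dim in both groups, so this average mostly reads signals at background and says little about the haemoglobin chains. Blood left in the tissue was not measured.

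**Figure D5:**
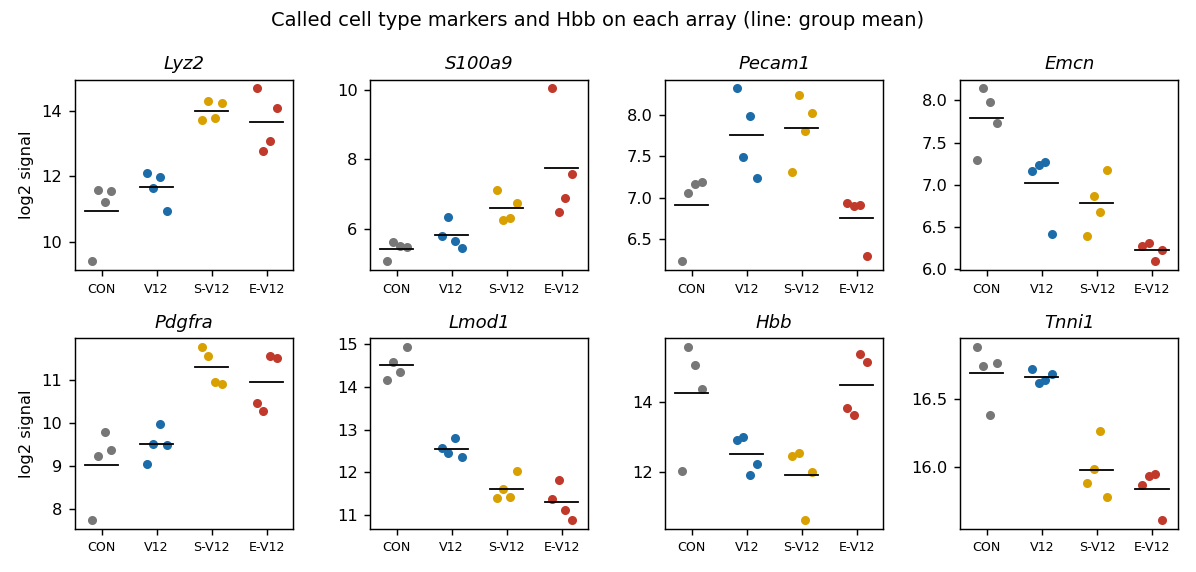
Points are log2 signals of 8 genes on the 16 arrays, by group, and lines are means of the 4 arrays of a group. Vertical scales differ between panels. The E-V12 arrays lie above the V12 arrays for Lyz2, S100a9, Pdgfra and Hbb and below them for Pecam1, Emcn, Lmod1 and Tnni1, and E-V12 replicate 1 stands apart for S100a9 at 10.04.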

How the data were processed

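Whole-diaphragm RNA of 16 rats, 4 per group, was measured on Clariom S arrays from 250 ng of RNA, 1 array per rat. The authors deposited log2 signals normalized with SST-RMA in Transcriptome Analysis Console, so no further normalization was applied, and the 1646 control probe sets were left out of the tests. Signals near the top of the scale are compressed, and precision is set by how many arrays each group has. The genome build of the array design was not given in the sources used here. Of 23188 transcript clusters, 15049 carried 1 gene symbol in the platform annotation and 8139 none.

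All 16 arrays were fitted with limma 3.58.1 in R 4.3.3 (lmFit, eBayes, a mean per group, two-sided contrasts), with Benjamini-Hochberg adjustment over all clusters and a threshold of 0.05. SE is that of the contrast. In data simulated from the means and spreads of these arrays, 100 of 23188 clusters were changed by 1 log2 unit, 100 by 2 and the others not at all. Of these, 53 and 98 were recovered, with 4 false calls. Far fewer clusters changed there than were called in the data, which makes the adjustment stricter, so these shares do not carry over. A signal counted as above background where it exceeded the highest background entry of its array.

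Alternatives were the methods' t-test, the 8 arrays alone, array weights, trended and robust variances, the lowest 25% of clusters left out, quantile normalization, median centring, 1 cluster per symbol, a replicate block, a fold of 2 and each array left out. Clusters above background alone and centring on the neg entries were added after seeing the data. The 48 lists held 1187 genes, of which 1052 had a named cluster. Members and lists were chosen with earlier results of these data known. Genes were named by a rule, the 15 highest and 15 lowest non-overlapping differences, up to 5 members per list by adjusted p, and genes tabulated by the study, 215 in all, from which a selection is printed. Cd68, Fosl2, Gclm, Gnl3, Gys1, Il6, Jak2, Klf10, Mybbp1a, Myc, Slc2a4, Timp1 and Utp20 fell outside it and were chosen after their values were seen. Promoters came from RefSeq, build GRCr8.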

Additional observations from a re-analysis of the deposited data

Results flagged for a closer look

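In 12 of 258 groups of 4 arrays tested (4.7%), 1 array stood apart from the other 3 by Dixon's ratio, the gap to the nearest array divided by the whole range. Chance flags about 1 in 20 groups. Car14 was at 12.66 in V12 replicate 1, against 10.36 to 10.74 on the others (ratio 0.832). Emcn was at 6.42 in V12 replicate 4, against 7.16 to 7.28 on the others (ratio 0.867). Jak2 was at 11.19 in V12 replicate 1, against 11.85 to 11.90 on the others (ratio 0.929). Plin2 was at 11.32 in V12 replicate 3, against 10.77 to 10.82 on the others (ratio 0.907). Car14 was at 9.32 in E-V12 replicate 3, against 8.76 to 8.82 on the others (ratio 0.893). Gadd45a was at 16.39 in E-V12 replicate 4, against 16.69 to 16.72 on the others (ratio 0.911). Gnl3 was at 11.19 in E-V12 replicate 2, against 11.44 to 11.49 on the others (ratio 0.846). Il6 was at 4.73 in E-V12 replicate 2, against 5.49 to 5.56 on the others (ratio 0.921). Il6r was at 11.91 in E-V12 replicate 2, against 11.14 to 11.22 on the others (ratio 0.894). Nqo1 was at 9.52 in E-V12 replicate 1, against 8.63 to 8.75 on the others (ratio 0.862). Pecam1 was at 6.30 in E-V12 replicate 4, against 6.90 to 6.93 on the others (ratio 0.940). The mean of the background entries was at 4.54 in E-V12 replicate 3, against 4.68 to 4.70 on the others (ratio 0.866).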

How the results depend on the processing

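At the adjusted p, 1101 clusters were higher and 883 lower. The methods' t-test gave 503 and 379, an added fold of 2 gave 514 and 352, and centring on the neg control entries, chosen after seeing the data, gave 6699 and 254. With the study's thresholds that centring gave 1936 and 92 in place of 543 and 373. Without any single array the counts ran from 772 to 991 higher and from 553 to 773 lower, and with the study's thresholds from 485 to 596 and from 295 to 460. The lowest count of lower clusters, 553, was without V12 replicate 1. The other settings, among them clusters above background alone, also chosen after seeing the data, stayed within 1.5 times of these 4 counts. Fitting the replicate number as a block gave 1082 higher and 842 lower. Same-numbered arrays of the groups had correlations of deviations of -0.01, 0.00, 0.06 and -0.09. Differently numbered arrays ranged from -0.11 to 0.10, so these values cannot show whether the numbers pair animals. Of 122 genes followed, 48 lost their call with the methods' t-test, 15 with centring on the neg entries and 22 without V12 replicate 1, and 1, Fbxo32, which had not been called, changed sign, from -0.44 to 0.0137 with centring on the neg entries. The causes were not tested. With 4 arrays per group, a change of 1 log2 unit was recovered for 53 of 100 simulated clusters, in a setting with far fewer changed clusters than were called here. That share does not carry over to these data, where small changes may still be missed.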
